A study of Mus musculus with 2 samples.

Results

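The cardiac myosin genes described here were 7 of the 40276 features counted in 2 spatial transcriptome libraries of normal mouse tissue, 1 from a brain section and 1 from a heart section. They were taken by symbol: the heavy chain genes Myh6 and Myh7, the non-coding antisense gene Mhrt, and the light chain genes Myl2, Myl3, Myl4 and Myl7. Both tissues had been fixed in formalin, embedded in paraffin and cut at 5 μm, and their total RNA was reverse transcribed in place from random primers (spRandom-seq). The labels give neither strain, sex nor age. With 1 library per tissue, no difference reported here has a replicate check, no p-value is given, and every interval is an exact 95% interval for counting error alone.

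A myosin motor of the heart muscle is built from a pair of heavy chains, each carrying an essential and a regulatory light chain. Myh6 encodes the fast alpha heavy chain, which dominates both atria and ventricles of the adult mouse, and Myh7 the slow beta heavy chain, which dominates the fetal mouse ventricle and returns in parts of the stressed adult heart. The light chains come in chamber versions: Myl2 (regulatory) and Myl3 (essential) are the ventricular ones, Myl7 (regulatory) and Myl4 (essential) the atrial ones. Mhrt is a long non-coding RNA transcribed antisense to the heavy chain locus and known as a regulator of the chromatin remodeller Brg1.

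In the GENCODE annotation of GRCm38, Myh6 and Myh7 lay on the minus strand of chromosome 14, with Mhrt between and partly across Myh7 on the plus strand. Mhrt overlapped the Myh7 gene over 3666 bases, and 484 of its 1214 exon bases (39.9%) were also exon bases of Myh7. Reads from those shared bases can be given to the right gene only with strand. Whether strand was used in counting is not given in the sources used here. Myl2 lay on chromosome 5, Myl3 on chromosome 9, and Myl4 and Myl7 on chromosome 11. The files were counted on mm39, so no coordinate of a counted gene is given.

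The heavy chains are also alike in sequence, which bears on every comparison between them. Of all 100-base windows of the Myh6 transcript, 11.4% occurred letter for letter in Myh7, and of 50-base windows 22.6%. The longest shared run, in the coding part of both GENCODE transcripts, had 245 bases and is printed 5′ to 3′ because reads that fall inside it name neither gene. None of the 6 pairs of light chain genes shared a 50-base window.

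Myh6 and Myh7 shared run: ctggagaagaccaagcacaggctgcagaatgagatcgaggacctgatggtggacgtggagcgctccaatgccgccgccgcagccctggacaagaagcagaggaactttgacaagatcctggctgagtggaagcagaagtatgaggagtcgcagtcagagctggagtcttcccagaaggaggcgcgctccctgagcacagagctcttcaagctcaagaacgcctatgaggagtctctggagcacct

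The light chains of the chambers were counted mostly in different spots. The 250 bases before a RefSeq start (GRCm38.p6) are therefore shown for a ventricular and an atrial light chain gene, on the strand of the gene. Capitals mark a CArG box, which is the recognition motif of serum response factor, and, searched on both strands, CATTCC, which is the core that TEAD factors bind. TGATAA, a motif of the GATA family of factors, was searched and marked likewise.

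Myl3 promoter, chr9:110763428-110763677, plus strand: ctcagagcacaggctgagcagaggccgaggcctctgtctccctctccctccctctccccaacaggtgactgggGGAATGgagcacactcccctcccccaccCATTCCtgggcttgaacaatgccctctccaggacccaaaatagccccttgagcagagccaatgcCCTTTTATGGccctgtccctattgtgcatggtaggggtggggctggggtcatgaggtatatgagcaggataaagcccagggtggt

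Myl7 promoter, chr11:5898783-5899032, minus strand: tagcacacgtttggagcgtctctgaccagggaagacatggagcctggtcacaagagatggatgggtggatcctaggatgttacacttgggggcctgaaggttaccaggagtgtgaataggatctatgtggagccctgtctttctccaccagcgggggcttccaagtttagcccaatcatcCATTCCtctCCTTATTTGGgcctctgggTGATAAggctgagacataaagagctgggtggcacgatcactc

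These are the 2 of the 7 members whose windows held a CArG box, 85 to 76 bases before the start in Myl3 and 61 to 52 in Myl7, a motif found in 1.47% of the 32851 RefSeq promoter windows of this length. Both also held CATTCC, found in 12.6% of windows. TGATAA, found in 7.94% of windows, stood 42 to 37 bases before the start of Myl7 and was not among the letters of the Myl3 window. These matches describe the letters and are not sites shown to be bound. The 2 RefSeq starts of Myl2 lay at -8227 and -7762 bases from the GENCODE start of the gene, that is upstream of it. For Myl4 the RefSeq start was the GENCODE start of the gene. The RefSeq start of Myl3, whose window is printed, lay 21817 bases downstream of the GENCODE start, inside the gene's span of 27.94 kb. The bases before other starts of Myl2, Myl3 and Myl4 were not searched, so a CArG box there was not tested.

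Spots were kept with at least 500 counts and 200 features, which left 3726 of 4992 barcodes in heart and 4080 in brain. The same 4992 barcodes were listed in both sections. Kept spots held 44613867 counts in heart (median 9049.5 per spot) and 37143546 in brain (median 5981). Ribosomal, mitochondrial and small structured RNA took 59.4% of the heart counts and 38.0% of the brain counts, so levels within the heart are given as non-ribosomal CPM, relative to the counts outside these RNAs, while levels between sections are CPM, relative to all counts. All 8 cardiomyocyte markers examined (Actc1, Tnnt2, Tnni3, Tnnc1, Ttn, Ryr2, Actn2 and Pln) were at least 4-fold higher in heart, and their sum was 21160 CPM there against 626 CPM in brain. A spot covers a small area that can hold several cells, and less RNA per cell cannot be told apart from fewer cells of a type.

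All 7 genes were higher in the heart section. Myh6 was counted 184092 times in the heart section and 86 times in the brain section, that is 4126 against 2.32 CPM, a ratio of 1782 (1443 to 2228). For Myh7 the counts were 3833 and, as for Myh6, 86, and the ratio was 37.1 (29.97 to 46.5). For Mhrt they were 3006 and 21, a ratio of 119 (77.8 to 193), or 70.4 with each spot weighted the same. The beta chain thus stood out far less against the brain than the alpha chain did.

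The ventricular regulatory chain Myl2 was counted 29886 times against 25, at a ratio of 995 (674 to 1538), or 489 with each spot weighted the same. The ventricular essential chain Myl3 was counted 12610 times against 56, at a ratio of 187 (144 to 248). The atrial pair was rarer and differed in its background: Myl7 had 1475 heart counts and 7 brain counts, a ratio of 175 (84.9 to 437), whereas Myl4 had 1713 and 168, a ratio of 8.49 (7.24 to 10.01). Myl4 was the member with the most counts in brain, spread over 146 spots with at most 3 counts in a spot.

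**Figure D1:**
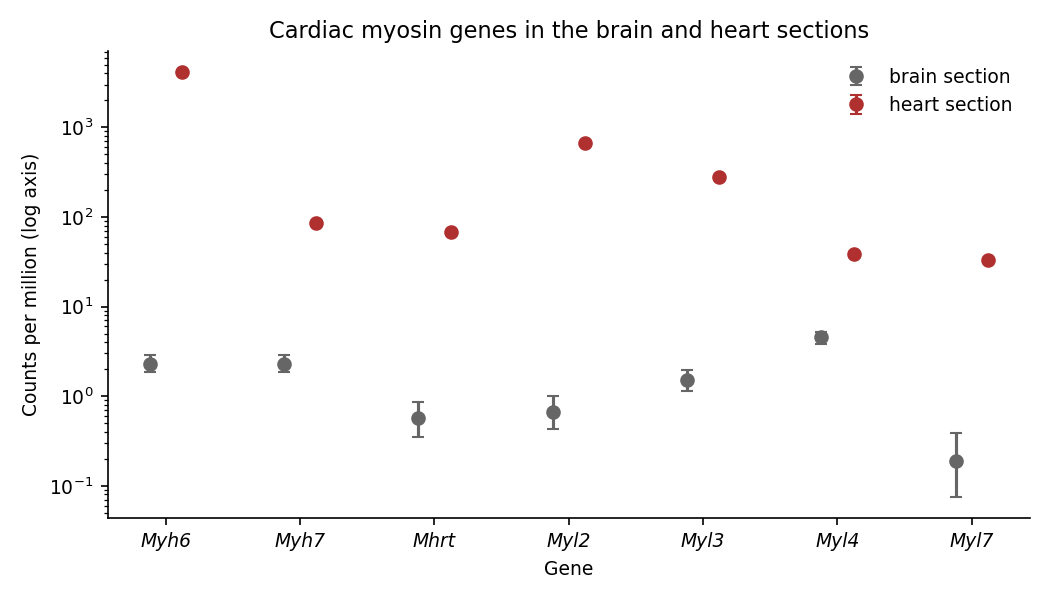
CPM (log axis) of each myosin gene in the kept spots of the brain section (grey) and the heart section (red), 1 library each, with exact 95% intervals for counting error that are often smaller than the points. The heart point lies above the brain point for each of the 7 genes, from 8.49-fold for Myl4 to 1782-fold for Myh6.

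All 7 passed the threshold of 4-fold with at least 20 CPM in heart, which 5.41% of the 6345 features at that level in either section passed. Their median log2 ratio was 7.36, against -0.71 over all features tested. Together they had 439 times the brain level (399.9 to 482) and made up 0.530% of all heart counts, or 1.31% outside ribosomal, mitochondrial and small RNA. Spots thinned to 2800 counts each held at least 1 myosin count in 98.9% of 2939 heart spots (99.2% unthinned) and in 3.24% of 3060 brain spots; 787 heart and 1020 brain spots were too shallow for this. Myh6 was counted in 98.1% of these heart spots and 0.425% of these brain spots, and Myl2 in 75.03% and 0.196%. Myl3 was counted in 48.6% and 0.425%, Myh7 in 18.9% and 0.686%, and Mhrt in 13.6% and 0.163%. The atrial light chains were in the fewest heart spots, Myl4 in 6.16% against 1.44% of brain spots and Myl7 in 5.27% against 0.0327%. In single spots the highest counts were 319 for Myh6, 63 for Myl2, 44 for Myh7, 34 for Myl7, 30 for Myl3, 19 for Myl4 and 15 for Mhrt.

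Per kilobase of the longest principal transcript in GENCODE, the order of heart levels was Myl2 (754 CPM per kb), Myh6 (675), Myl3 (302), Mhrt (81.4), Myl7 (56.0), Myl4 (40.7) and Myh7 (13.8). Myl2 and Myh6 headed this order, and the beta heavy chain came last, below its own antisense partner. Whether introns were counted is not given in the sources used here, so the transcript alone may not be the right length for every gene. The 2 microRNAs hosted in the heavy chain genes, Mir208a and Mir208b, had 0 counts in both sections, which allows up to 0.0672 CPM in heart and 0.0808 CPM in brain.

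Other genes of the myosin system were examined to place these levels. Of 15 partners of the thick filament, 9 were abundant enough to test and 6 were higher in heart. Ttn, the giant scaffold of the sarcomere, was 589-fold higher and the M-band protein Myom1 44.3-fold. Others past the threshold included Myom2, Mylk3, the kinase of the ventricular regulatory light chain, and Mybpc3, the cardiac myosin binding protein C, which was 399.9-fold higher. Of 6 myosin folding and turnover genes, 5 were higher, among them the methyltransferase Smyd1 (10.9-fold, 9.80 to 12.3), the myosin chaperone Unc45b (14.8-fold, 12.04 to 18.4) and the ubiquitin ligase Trim55 (19.8-fold). The general chaperone Hsp90aa1 was 8.89-fold lower in heart.

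Most other myosin genes did not pass the threshold. Of 11 other heavy chains 5 could be tested. The non-muscle chains Myh9 and Myh14 stood at 1.33 and 0.998 times the brain level, and Myh10 was 4.26-fold lower. Myh7b, a sarcomeric chain, was 9.62-fold higher (7.96 to 11.7). Of 8 other light chains 1 could be tested, the non-muscle chain Myl6 at 0.787 times the brain level; Myl1 stood at 2.73 times and Myl9 at 1.86 times. None of the 7 skeletal muscle markers reached 20 CPM in either section, and their sum was 12.7 CPM in heart and 7.86 in brain.

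Among 14 regulators of heavy chain genes 12 could be tested. Sox6 stood at 2.42 times, Tead1 at 3.01 times and the thyroid hormone receptor Thrb at 0.831 times the brain level. Past the threshold, the cardiac factors Gata4 (8.50-fold) and Gata6 (13.2-fold) were higher in heart and Purb was 8.68-fold lower. Of the 6 ventricular genes other than the members, 3 could be tested and all were higher: Pln (816-fold), Ckm (102-fold) and Fhl2 (23.95-fold). Of the 11 atrial genes 5 could be tested and 2 were higher, Nppa (177-fold) and Tbx5 (7.90-fold), while Kcnj3, a potassium channel gene also used by neurons, stood at 0.664 times the brain level. Of the 4 cardiac stress genes 2 could be tested and both were higher, Xirp2 (20.8-fold) and Ankrd1 (115-fold); Acta1 stood at 14.8 times the brain level.

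The light chains were close to either ventricular or atrial in nearly all spots that had enough light chain counts to score. Over the whole heart section, Myl4 and Myl7 made up 6.98% (6.75 to 7.22) of the counts of the 4 light chains. Of the 1677 spots with at least 10 light chain counts, 1552 had an atrial share below 20%, 119 had a share of 80% or more, and 6 lay between. The other 2049 heart spots had fewer such counts and were not scored. In 1362 of these spots no atrial light chain was counted at all, and in 64 no ventricular one. Median depth was 16682 counts in the low group and 23095 in the high group, and the minimum of 10 counts favours deep spots.

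**Figure D2:**
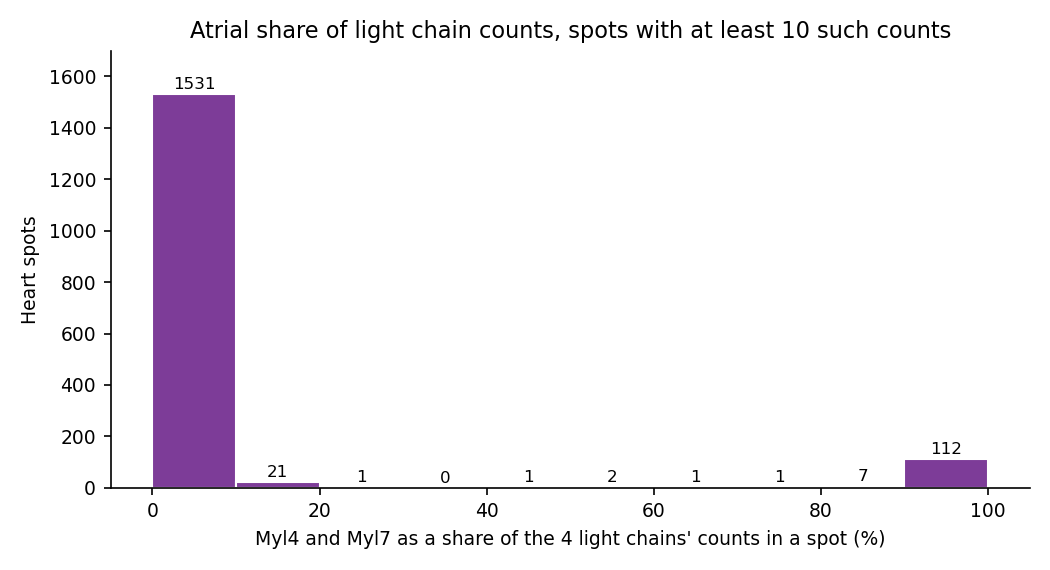
Number of heart spots by the share of Myl4 and Myl7 in the counts of the 4 cardiac light chains, in steps of 10 percentage points, for the 1677 spots with at least 10 such counts. The bars stand at the ends, with 1531 spots under 10% and 112 spots at 90% or more.

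The same pattern was seen at equal depth. After thinning to 2800 counts, Myl7 was counted in 1.18% of heart spots that held Myl2 and in 17.6% of those without Myl2. Myl4 was counted in 2.00% and 18.7% of the same spots. Myl4 and Myl7 were counted together in 80 spots, and Myl7 was found in 44.2% of spots with Myl4 against 2.72% of those without. In the ventricular pair, Myl3 was counted in 54.3% of spots with Myl2 and in 31.3% of those without.

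Atrial light chain counts were gathered in few spots. The 37 spots (1% of 3726) with the most counts of each gene held 38.6% of all Myl7 counts and 32.2% of Myl4, but 5.81% of Myl2, 6.44% of Myl3 and 5.25% of Myh6. The 37 deepest spots held 4.57% of all counts. Myh7 (16.9%) and Mhrt (10.1%) lay between. The atrial light chains thus had the highest shares in so few spots, a measure that does not show where a gene is missing.

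To follow the genes from one chamber's spots to the other without using their own counts, spots were ordered by the summed level of 11 other atrial genes (among them Nppa, Sln, Bmp10, Mybphl, Kcnj3, Tbx5 and Dkk3) and cut into 10 equal groups (deciles). This ordering was chosen after the data had been seen. Spots of the lowest deciles held none of these genes, and ties were kept in file order. The top decile had 372 spots with a median of 5769.5 counts, and the other 9 deciles had 3354 spots with a median of 9255.5.

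In the top decile the light chains traded places. Myl7 stood at 808 non-ribosomal CPM against 12.3 in the other deciles, 65.6-fold higher (56.5 to 76.4). Myl4 stood at 832 against 24.5, 34.0-fold higher (30.4 to 38.1). Myl2 stood at 277 against 1779, 6.42-fold lower, and Myl3 at 111 against 751, 6.79-fold lower. The atrial share of light chain counts was therefore 80.9% (79.5 to 82.2) in the top decile and 1.43% (1.32 to 1.55) elsewhere.

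The heavy chains did not trade places. Myh6 was counted at 8909 non-ribosomal CPM in the top decile and 10275 in the others, a ratio of 0.867 (0.852 to 0.882), close to the 0.804 of Ttn. Myh7 was at 87.1 against 223, that is 2.56-fold lower (2.16 to 3.06), and its share of heavy chain counts was 0.968% in the top decile against 2.13% elsewhere. Mhrt was at 193 against 163, a ratio of 1.18 (1.04 to 1.33).

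Of the 7 members 2 were at least 2-fold higher in the top decile, where 1.25% of 8476 features were, and 3 were at least 2-fold lower, where 1.42% were. The median log2 ratio was -0.21 over the members and 0.04 over all features. The ventricular genes Pln, Fhl2 and Ckm were 3.07-fold, 2.45-fold and 2.65-fold lower. Summed fibroblast markers were 1232 non-ribosomal CPM in the top decile against 585, summed erythrocyte markers 335 against 1315, and summed cardiomyocyte markers 42985 against 52948. The part of these markers in the differences was not tested.

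**Figure D3:**
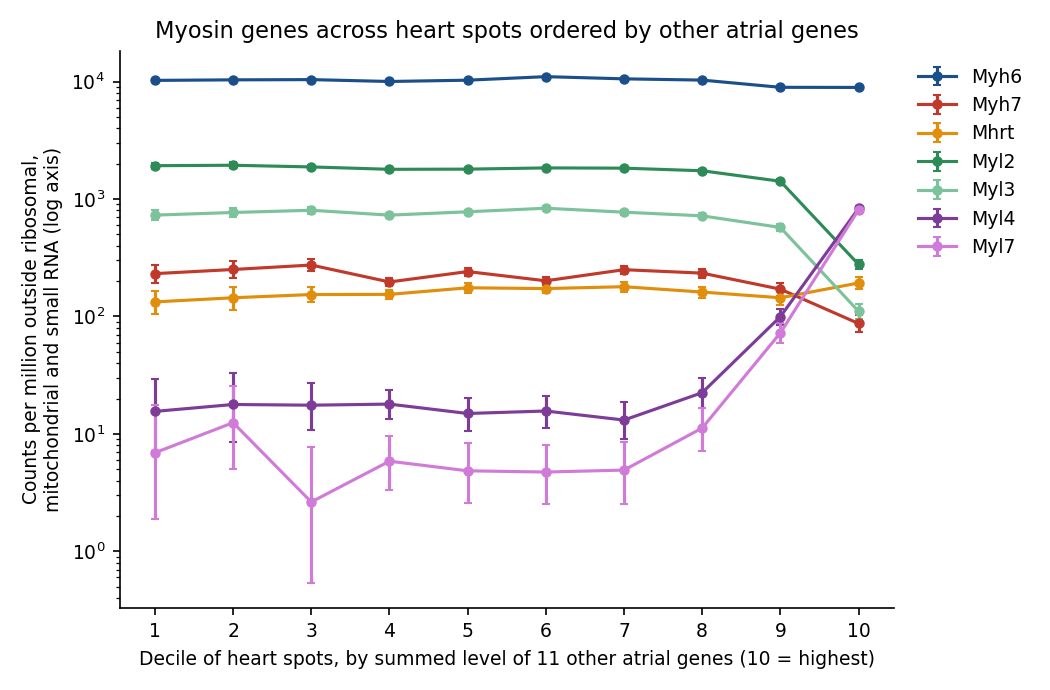
Non-ribosomal CPM of each myosin gene (log axis) in 10 groups of heart spots ordered by 11 other atrial genes, with 95% counting intervals. Myl4 and Myl7 climb in groups 9 and 10 to 832 and 808, Myl2 and Myl3 drop to 277 and 111 in group 10, and Myh6 stays between 8909 and 11006.

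The lower Myh7 share depended on which atrial genes ordered the spots. Grouped by sarcolipin (Sln) alone, the Myh7 share was 2.13% in 3565 spots with no Sln count, 0.679% in 87 spots with 1, 0.857% in 54 spots with 2 or 3, and 0.472% in 20 spots with 4 or more. The atrial light chain share ran from 2.16% to 96.5% over the same groups. Grouped by natriuretic peptide A (Nppa) alone, the Myh7 share was 1.92% in 3062 spots with no Nppa count, 2.33% with 1, 3.13% with 2 or 3 and 2.18% in 122 spots with 4 or more, while the atrial light chain share ran from 1.93% to 72.9%. With spots ordered by Nppa and Sln together, the Myh7 share in the top decile was 0.961 times that elsewhere (0.859 to 1.07), against 0.455 times (0.384 to 0.540) with all 11 genes. The top decile by Nppa and Sln had an atrial light chain share of 55.9%, against 80.9% with all 11 genes. Spots with 2 or 3 Nppa counts had 20.2%, so these groups mixed spots of both kinds. The 122 spots with 4 or more Nppa counts were rich in atrial light chains without a low Myh7 share. The part of ventricular spots in the Myh7 share of these groups was not tested.

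Below the atrial spots, the atrial light chains did not have the same floor. In the lower 8 deciles, Myl4 was still counted at 16.7 non-ribosomal CPM (14.7 to 18.9) and Myl7 at 6.13 (4.94 to 7.52), so that there were 36.7 Myl7 counts per 100 Myl4 counts, against 97.2 in the top decile. Myl4 was also the member with the most counts in brain. Over the GRCm38 annotation the Myl4 gene spans 45.1 kb and Myl7 2.15 kb.

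Mhrt had 78.4 counts per 100 Myh7 counts over all heart spots (74.7 to 82.3). The pair showed little joint movement from spot to spot. Their correlation over 3726 heart spots was 0.09 (Pearson, log scale), against 0.21 for Mhrt with Myh6 and 0.20 for Myh6 with Myh7. The median count per spot was 0 for Mhrt and for Myh7 but 32 for Myh6. Counting noise therefore weighs most on the value for Mhrt with Myh7. Over all features compared, the median correlation was 0.048 with Myh7 and 0.079 with Mhrt. These spots share 1 library, and the values are a description. At equal depth, Mhrt was counted in 13.1% of spots with Myh7 and in 13.8% of spots without.

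Grouping the spots by their Myh7 count shows the same from the other side. Spots with 0 Myh7 counts had Mhrt at 145 non-ribosomal CPM (136 to 155), spots with 1 at 177, spots with 2 to 4 at 185, spots with 5 to 9 at 178, and the 34 spots with 10 to 44 at 129 (98.4 to 165). The ratio of Mhrt to Myh7 must fall along these groups, since Myh7 made them. The ratio to Myh6 was not used in the grouping, and there were 15.97 Mhrt counts per 1000 Myh6 counts with no Myh7, then 16.1, 16.5, 17.5 and 18.1 (13.8 to 23.3). The median depth of these groups ran from 6228 to 26274 counts, and in 4 equal groups of spots from shallow to deep the ratio to Myh6 was 16.1, 13.05, 13.9 and 17.9. The part of depth was not tested.

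**Figure D4:**
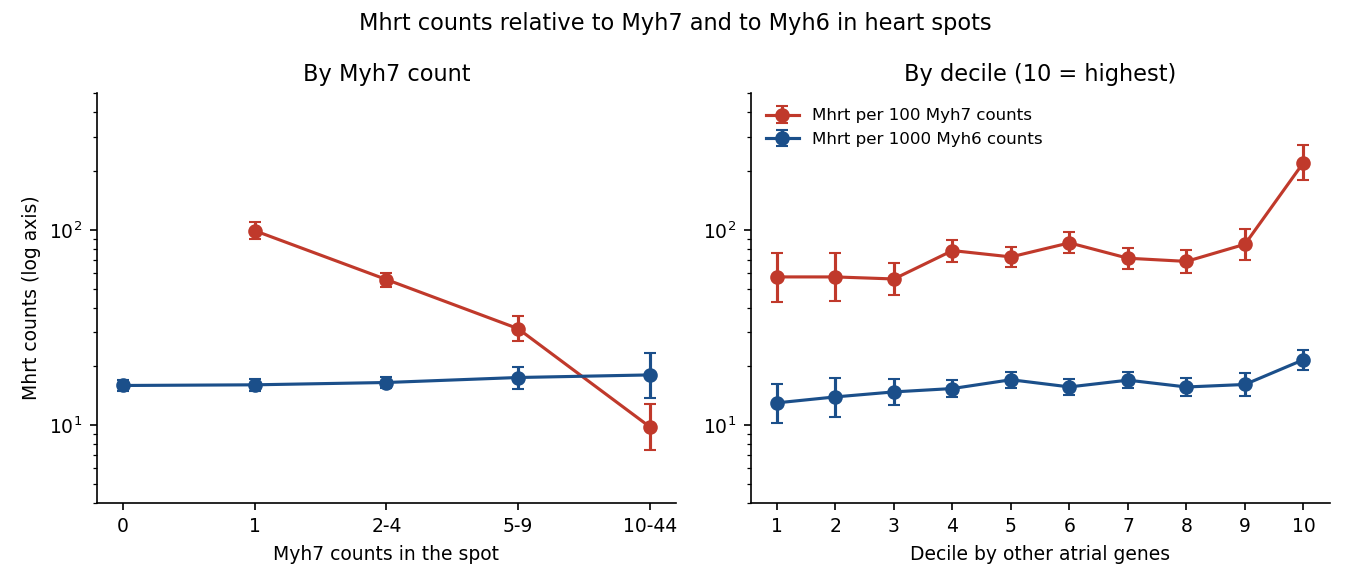
Mhrt counts per 100 Myh7 counts (red) and per 1000 Myh6 counts (blue), on a log axis with 95% counting intervals, in heart spots grouped by their Myh7 count (left) and by deciles of 11 other atrial genes (right). The blue line on the left stays between 15.97 and 18.1, while on the right the red value is 221 in the top decile.

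In the top decile there were 221 Mhrt counts per 100 Myh7 counts (180 to 273), against 73.1 (69.6 to 76.9) elsewhere, and 21.6 per 1000 Myh6 counts (19.2 to 24.2) against 15.9 (15.3 to 16.5). With spots ordered by Nppa and Sln, the first ratio was 102 (87.5 to 119). The ratio also moved with depth: it was 60, 52.5, 68.7 and 89.5 per 100 Myh7 counts in 4 equal groups of spots from shallow to deep, whose median depths ran from 1148.5 to 24903 counts. The part of depth in the difference between deciles was not tested.

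Myh7 made up 2.04% of heavy chain counts over the heart section (1.98 to 2.10) and was unevenly spread. Among 1388 spots with at least 50 heavy chain counts, the median share was 1.19%, the quartiles were 0% and 2.41%, and 433 spots had no Myh7 count. In 28 of them Myh7 made up 10% or more. The lowest shares inside this limit were 10.5% and 10.6%, and the highest outside were 9.84% and 9.64%. The spot with the most Myh7 had 44 counts beside 138 of Myh6, and in 1 spot Myh7 outnumbered Myh6, with 32 counts against 31 and no Mhrt count.

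These 28 Myh7-rich spots held 542 Myh7 counts, 19.7% of those in the 1388 spots. What follows describes other genes in spots chosen for their Myh7 share, with 1360 other spots of the same minimum as the comparison. None of the 28 lay in the top decile by atrial genes, which held 372 of the 3726 heart spots. How many of the 1388 spots lay in that decile was not counted, so nothing is read from this. Myl4 had 3 counts and Myl7 1 count in the 28 spots, at ratios of 0.0852 (0.0176 to 0.250) and 0.0311 (0.000787 to 0.174) to the other spots. Myh6 stood at 6392 non-ribosomal CPM against 11528, which the choice by Myh7 share favours. Myl2 stood at 0.614 and Myl3 at 0.637 of the level elsewhere. Mhrt stood at 126 against 196 non-ribosomal CPM, 0.644 of the level elsewhere (0.465 to 0.870). Summed cardiomyocyte markers were also lower in the 28 spots, at 41198 against 59189 non-ribosomal CPM. There were 19.7 Mhrt counts per 1000 Myh6 counts (14.2 to 26.6) against 16.97. The choice of spots favours low Myh6 and so raises this ratio, and nothing is read from it.

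Of the 4 genes listed for cardiac stress, 3 could be tested and 2 were at least 2-fold higher in Myh7-rich spots. Ankrd1, an ankyrin repeat protein of the sarcomere and nucleus, stood at 944 against 164 non-ribosomal CPM, 5.74-fold higher (5.09 to 6.46), and was counted in 26 of the 28 spots against 58.5% of the others. Acta1, the skeletal alpha actin of the fetal heart, stood at 202 against 41.3, 4.90-fold higher (3.75 to 6.31), and was counted in 23 of 28 against 23.7%. Xirp2 was 1.96-fold higher (1.83 to 2.09). Nppb, the B-type natriuretic peptide, had 11 and 177 counts, a ratio of 2.24 (1.10 to 4.11), below the level for testing. Nppa was at 0.723 of the level elsewhere (0.510 to 0.996). In the top decile by atrial genes, where Myh7 was lower, Ankrd1 was 2.03-fold higher (1.85 to 2.23) and Acta1 3.66-fold lower than in the other deciles.

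**Figure D5:**
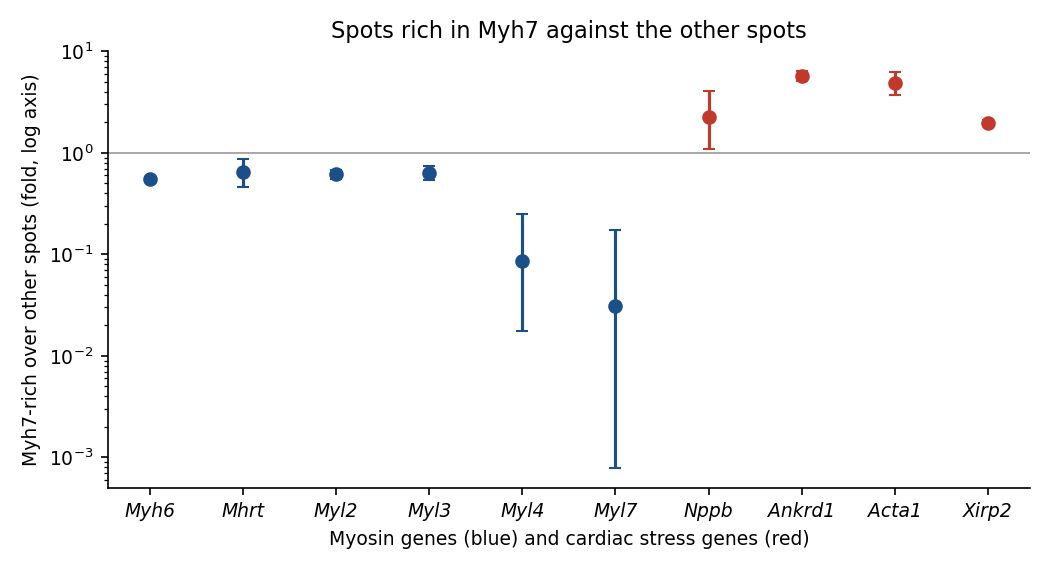
Ratio (log axis) of the level in 28 heart spots where Myh7 was at least 10% of heavy chain counts to that in 1360 other spots, for the other myosin genes (blue) and 4 cardiac stress genes (red), with 95% counting intervals; the line marks a ratio of 1. Ankrd1 at 5.74 and Acta1 at 4.90 lie highest, and Myl4 and Myl7 lie lowest at 0.0852 and 0.0311.

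At 60 non-ribosomal CPM or more in these spots, the 12 genes with the largest ratios were, in order, Prg4 (lubricin, 9.91-fold), Cilp (9.51-fold), Ankrd1, Thbs1 (5.54-fold), Thbs4 (5.37-fold), Ccn2 (5.01-fold), Acta1, Mybpc2 (4.46-fold), Bmx (4.38-fold), Postn (periostin, 4.24-fold), Nox4 (4.12-fold) and Mgp (4.07-fold). They were named after their values were seen, and 20 of the 50 Prg4 counts came from 1 spot. Summed fibroblast markers were 920 non-ribosomal CPM in the 28 spots against 535, with Col1a2 and Lum past 2-fold among the 6, and ribosomal, mitochondrial and small RNA took 49.6% of counts against 59.5%. The part of these in the result was not tested. Over all 8476 features 2.35% were at least 2-fold higher and 4.22% at least 2-fold lower in these spots; Myh7 chose these spots, and nothing is read from the shares. Of the 13 regulators of heavy chain genes that could be tested none passed 2-fold in either direction, and Thra stood at 0.812 (0.461 to 1.33) and Tead1 at 0.975 (0.830 to 1.14).

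Grouping the heart spots by 2000 variable features gave 5 regions. Myh7 made up 2.11% of heavy chain counts in region 1 (1132 spots, led by Cox6b1, Ndufb6 and Tmem50a), 2.69% in region 2 (1039 shallow spots, led by Col9a2, Col2a1 and Mt2), 1.79% in region 3 (1095 deep spots, led by Myl7, Lrtm1 and Myl4) and 2.49% in region 4 (352 spots, led by the haemoglobin genes Hba-a1, Hbb-bs and Hbb-bt). In region 5 (108 spots, led by Prg4, Comp and Angptl7) it was 8.60% (7.57 to 9.72), 4.80 times the lowest. Without the 5 Myh7-rich spots among them, region 5 had 4.35% (3.55 to 5.28). Region 5 was also the lowest in summed cardiomyocyte markers (12065 non-ribosomal CPM against 14740 to 65106 elsewhere) and the highest in summed fibroblast markers (2234 against 393 to 616), with Myh6 at 2198. The part of these in the Myh7 share was not tested.

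Region 5 was also the region highest in Nppa, at 237 non-ribosomal CPM, and its atrial light chain share was 61.2% (57.2 to 65.2), against 0.608% to 8.83% in the other regions. Its 22 spots in the top decile had an atrial share of 92.1% with a Myh7 share of 1.08%, and its 86 other spots 48.1% with 11.9%. The myosin genes and the genes of the lists examined here were left out of the grouping. These values describe the regions of a single library and test nothing. The regions changed with the settings: the atrial share in the region highest in Nppa lay between 8.50% and 72.3% over 5 other settings, and the ratio of the highest to the lowest Myh7 share between 1.45 and 2.83. Leaving 5 further small RNA genes out of the grouping was enough to give 16.6% and 1.47. The shares by spot and by decile do not use the regions.

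The features whose levels followed each member most closely across heart spots were named by Pearson correlation of log-scaled levels among 4283 features. For Myh6 these were Ttn (0.78), Atp2a2 (0.56), Lpl (0.54) and Mb (0.53). For Myl2 they were Ttn (0.51), Pln (0.51), Myl3 (0.48) and Myh6 (0.47), and for Myl3 they were Myl2 (0.48), Mybpc3 (0.47), Ttn (0.46) and Mb (0.45). The ventricular light chains and the alpha heavy chain thus followed titin and abundant muscle genes.

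For Myl4 the closest were Myl7 (0.66), Fgf12 (0.44), Dkk3 (0.41) and Gpx3 (0.41), and for Myl7 they were Myl4 (0.66), Fgf12 (0.47), Dkk3 (0.45) and Nppa (0.43). The lowest values of both were with Myl2, at -0.39 and -0.40. For Myh7 the closest were Mybpc3 (0.26), Hspb7 (0.24), Actc1 (0.24) and Myl2 (0.23), and for Mhrt they were Ryr2 (0.27), Lpl (0.25), Ppp1r3a (0.25) and Chrm2 (0.24). All these values are descriptions over 3726 spots that share 1 library and its depth.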

How the data were processed

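Each library was deposited by the authors as a table of counts per feature and barcode, whole numbers with no normalization. STARsolo and the build mm39 are named in the submitters' processing notes; the version, the treatment of molecular identifiers, introns, reads that match several genes and strand are not given in the sources used here. Spots are barcodes with 500 counts and 200 features or more. Counts were summed over spots and divided by the total (CPM), and intervals are exact Poisson or binomial at 95%, or binomial conditional on the sum for ratios of counts (a normal interval on the log scale for ratios of shares); they cover counting error only. A zero is given as the level of 3 counts. Between sections, features at 20 CPM or more in either section were called at 4-fold; within the heart, features at 20 non-ribosomal CPM (relative to counts outside ribosomal, mitochondrial and small RNA) were called at 2-fold. Depth was matched by thinning spots to 2800 counts. Regions came from 2000 variable features, 20 principal components, 15 neighbours and Leiden clustering at resolution 0.6 (scanpy 1.11.5); no doublet caller was run on spots. Named by rule were all 7 members, the 3 genes of each list highest in heart, the 4 features closest to each member and 3 per region; other genes were named after their values were seen, and some genes of the lists are not reported here. The fold rule was run on simulated counts drawn at the brain's rates, with no variation beyond counting. Of features changed 6-fold or 12-fold, 50 of 50 each were called, and of 50 changed 2-fold 0 were. At such depth the 4-fold limit fixes this outcome, so it checks the calculation and not the rule on these data. The genes, lists and comparisons were chosen with earlier results of these data known. Sequences are from RefSeq (GRCm38.p6, entries for all 7 genes) and GENCODE (GRCm38). Other sections or replicates were not analysed here.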

Additional observations from a re-analysis of the deposited data

Results flagged for a closer look

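Barcodes below the spot threshold, which the comparisons leave out, also held cardiac myosin counts. In 1266 such heart barcodes, Myh6 stood at 3275 CPM with 507 counts, against 1 count in 912 such brain barcodes. Myl2 was at 678 CPM and Myl3 at 329 CPM, with 0 counts of either in the brain barcodes, which allows up to 19.1 CPM there. Mhrt was at 58.1 CPM with 9 counts and Myh7 at 45.2 CPM with 7 counts, again with 0 counts in the brain barcodes. Myl4 was at 77.5 CPM with 12 counts, against 25.5 CPM with 4 counts in brain. Where these barcodes lie relative to the tissue was not analysed here.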

How the results depend on the processing

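No paired analysis was possible because the labels give 1 library per tissue and no replicate numbers. Requiring 1000 counts and 500 features, or using all barcodes, kept all 4 section-wide values within their intervals, and 346 and 342 features were at least 4-fold higher in heart. In non-ribosomal CPM, the heart to brain ratio of the summed genes was 669 and 876 features were, against 343; with 2-fold as the limit 762 were. Each spot weighted the same gave a ratio of 375, a Myh7 share of 2.16%, an atrial share of 5.98% and 68.3 Mhrt counts per 100 Myh7 counts. All 35 ratios of single genes under alternatives stayed above 1, but with each spot weighted the same Myl2 was at 489, Myl3 at 136 and Mhrt at 70.4; in non-ribosomal CPM they ran from 12.95 for Myl4 to 2719 for Myh6.

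The values by region depended on the grouping. The atrial share in the region highest in Nppa was 10.1% at resolution 0.3, 72.3% at 1.0, 8.50% with 1000 variable features, 45.9% with spots of at least 1000 counts and 16.6% with further small RNA genes left out; the Myh7 ratio between regions was 1.45, 1.72, 2.83, 1.57 and 1.47 under the same settings. Of the 28 closest pairs of member and gene, 16 were shared when only spots with at least 5000 counts were used and 20 with rank correlation.

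The alternatives for the top decile and the Myh7-rich spots were chosen after seeing the data. The atrial share in the top decile was 55.9% with spots ordered by Nppa and Sln, 78.0% without Kcnj3, 72.9% in spots with at least 5000 counts and 94.9% in the top 5% of spots. The Myh7 share relative to the rest was 0.961 with Nppa and Sln and 0.265 in the top 5% of spots, and Mhrt counts per 100 Myh7 counts were 102 and 393. Ankrd1 in Myh7-rich spots was 3.36-fold higher at a Myh7 limit of 5% and 4.71-fold higher with at least 30 heavy chain counts. The causes were not tested. Genes under about 20 counts in a group, as Myl4 and Myl7 in Myh7-rich spots, are known only within wide intervals.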

Other observations

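Of 5 other myosin heavy chains abundant enough to test, 1 was at least 2-fold lower in the top decile by atrial genes and none higher, and the 1 other light chain tested, Myl6, stood at 1.38 times the level elsewhere. Myl1, the essential light chain of fast skeletal muscle, stood at 80.8 non-ribosomal CPM in the top decile and 12.6 elsewhere, 6.43-fold higher (5.11 to 8.05), and Myl9, a regulatory light chain of smooth muscle, at 31.2 against 8.22, 3.79-fold higher. Myh7b, a sarcomeric heavy chain related to Myh7, stood at 24.2 against 79.4, 3.28-fold lower, and Mybpc3 was 2.07-fold lower. Mybphl, a myosin binding protein that was itself used in the ordering, stood at 151 against 5.20. Myl1, Myl9 and Mybphl were under the level for testing over all spots, and these genes were named after their values were seen.

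In the brain section, 22 of 87 Myh6 counts over all barcodes came from 1 barcode with 12681 counts, where the next highest had 4. It also held 87 of the 946 Ttn counts in brain, 11 of Ryr2, 3 of Tnni3, 2 of Tnnt2 and 1 each of Tnnc1, Pln, Actn2, Mhrt and Myl7, with 7 of Snap25 and 0 of Actc1, Myl2, Myl3, Myl4 and Myh7. Without it, the heart to brain ratio of Myh6 was 2394 (1875 to 3109) in place of 1782.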
